A study of Mus musculus with 8 samples.

Results

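Hmox1 encodes heme oxygenase 1, the inducible enzyme that opens the heme ring and releases biliverdin, carbon monoxide and iron. It was followed here through the 1 probe that carries the gene symbol Hmox1 (Entrez gene 15368), among 10500 probes and 6315 tested genes. The gene was chosen by its measured change between stimulated and contralateral muscle on these same arrays, so its own levels and changes are given as a description with no test. RNA came from the EDL (extensor digitorum longus), a muscle of mostly fast fibres in the lower leg, of 4 Swiss Webster mice, which the labels call male for all but 1 of the 8 muscles. Mice 183, 197, 438 and 440 each had a stimulated EDL, made to contract for 4 h through the sciatic nerve, and an unstimulated contralateral EDL that served as its control. Whole muscles were used, so the RNA of fibres, vessels, connective tissue and blood cells was read together, and more cells of a type cannot be told apart from more RNA per cell. The age of the mice was not given in the sources used here.

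Heme is the iron-holding group of myoglobin, hemoglobin and the cytochromes, and free heme is a strong oxidant. Cells hold Hmox1 off with the repressor BACH1, which heme displaces, and switch it on through the factor NRF2 (encoded by Nfe2l2) paired with a small MAF protein at antioxidant response elements. AP-1, hypoxia-inducible and heat shock factors also act on the gene, and macrophages that take up red cells are among its strongest sources. The second enzyme, heme oxygenase 2 (Hmox2), does the same reaction but is made constitutively.

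Intensities are the authors' normalized values on a linear scale without a named unit, and changes are differences in log2 intensity between the 2 muscles of a mouse, stimulated minus contralateral. The 10 measured markers of fast skeletal muscle fibre, among them Tnni2 and Ckm, were bright on every array, with a summed intensity of 5300 to 9180 in stimulated and 7650 to 15500 in contralateral muscle. Array medians lay between 0.90 and 0.94 intensity units, and over all tested probes the median log2 change was -0.14 as deposited, -0.06 once the arrays were quantile normalized and -0.01 with cyclic loess. Of 10406 tested probes, 139 changed at a Benjamini-Hochberg adjusted p of 0.05 with limma, which is 1.34% of them, 115 higher (1.11%) and 24 lower (0.231%). At an unadjusted p under 0.05 these counts were 701 higher and 883 lower. Whether called or not, 3667 of the tested probes had a positive and 6737 a negative change.

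The Hmox1 probe read 26.3, 21.9, 15.4 and 143 intensity units in the stimulated EDL of mice 183, 197, 438 and 440, against 5.49, 6.81, 6.34 and 5.58 in their contralateral EDL. Every stimulated muscle lay above every contralateral muscle, and the stimulated EDL of mouse 440 lay far above the other 3. As folds of stimulated over contralateral muscle within mice 183, 197, 438 and 440 these were 4.80, 3.21, 2.42 and 25.6. The mean log2 intensity was 5.07 ± 1.43 in stimulated and 2.59 ± 0.15 in contralateral muscle (SD, n = 4 each). The fitted log2 change was 2.48, or 5.56-fold, with a moderated standard error (SE) of 0.46 from limma and an SE over the 4 mice of 0.76.

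**Figure D1:**
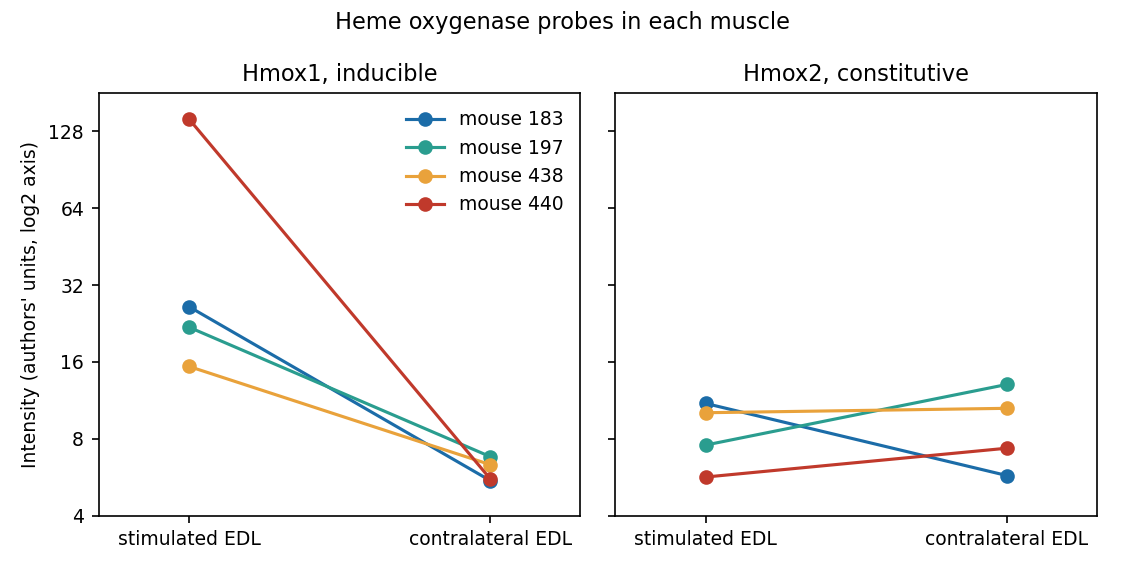
Intensity of the Hmox1 probe (left) and the Hmox2 probe (right) in the stimulated and contralateral EDL, in the authors' units on a log2 axis, with a line for each of 4 mice. The Hmox1 lines run from 15.4 to 143 in stimulated muscle and meet between 5.49 and 6.81 in contralateral muscle, whereas the Hmox2 lines cross.

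The spread of Hmox1 lay almost wholly on the stimulated side. Its contralateral values differed by 1.24-fold between the lowest and the highest mouse, and their SD of 0.15 on the log2 scale compares with a median SD of 0.53 over 6245 genes with values in all mice. Among those genes 2.5% had a smaller contralateral SD, with no account taken of brightness. Hmox1 read 5.49 to 6.81 intensity units in contralateral muscle, where array medians were 0.90 to 0.93. The stimulated values differed by 9.31-fold, and the SD of the change over mice, 1.52, was larger than that of 98.3% of the genes, whose median was 0.47.

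By fitted change Hmox1 stood 15th among 6315 genes. By the change within mice 183, 197, 438 and 440 alone it ranked 47th, 65th, 205th and 10th. Its smallest change in any mouse was 1.28, and 24 of 6245 genes (0.384%) had a larger smallest change. Mouse 440 carried part of the size: without it the log2 change was 1.74, or 3.34-fold. The change was 1.97 within mice 183 and 197 and 2.98 within mice 438 and 440; arrays of the first pair lacked 79 to 133 values each and those of the second 26 to 32.

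Hmox2, the constitutive enzyme, showed no call. Its probe read 11.0, 7.56, 10.1 and 5.67 intensity units in the stimulated EDL of mice 183, 197, 438 and 440, against 5.74, 13.1, 10.5 and 7.35 in their contralateral EDL. The groups overlapped, and the stimulated muscle was higher in 1 of 4 mice. The log2 change was -0.07 ± 0.27 (SE, n = 4) and did not pass (adjusted p = 0.918, limma). Of the heme breakdown list, Hmox1 and Hmox2 were the 2 of 5 genes measured; biliverdin reductases and the electron donor Por were not analysed here.

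The genes that make heme, of which 6 of 9 listed were measured, had 0 rising and 0 falling (1 and 1 at unadjusted p under 0.05, limma), with a median log2 change of -0.23. Urod, which trims the side chains of the early ring, had a log2 change of -0.62 ± 0.24 (adjusted p = 0.266, limma), Cpox one of -0.33 ± 0.24 and Uros one of -0.32 ± 0.24. Ferrochelatase (Fech), the enzyme that inserts iron into the finished ring, had the list's most positive value, 2.54 ± 0.96, and did not pass (adjusted p = 0.263, limma). That value came from 2 mice. Fech read 10.1, 8.49, 8.69 and 19.3 intensity units in the stimulated EDL of mice 183, 197, 438 and 440, against 0.157, 13.7, 0.312 and 18.6 in their contralateral EDL. Its stimulated muscles were alike apart from mouse 440, and the contralateral muscles of mice 183 and 438 were low.

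Iron and heme transport and storage genes, 19 of 33 measured, had 0 rising and 0 falling (3 and 1 at unadjusted p under 0.05, limma), with 9 positive and 10 negative changes and a median of -0.01. Lrp1, the receptor that takes up heme bound to hemopexin among many other ligands, read 7.12, 6.96, 22.4 and 30.2 intensity units in stimulated EDL and 3.10, 5.36, 8.15 and 4.03 in contralateral EDL of mice 183, 197, 438 and 440. It was higher in 4 of 4 mice, with a log2 change of 1.49 ± 0.34 that did not pass (adjusted p = 0.0854, limma) and stood at 1.01 without mouse 440. The iron importer Slc11a2 (0.66 ± 0.21) and hepcidin, Hamp, the hormone that closes iron export (1.32 ± 0.43), also had 4 positive changes of 4, short of the threshold. Hamp was dim, at 0.368 to 1.62 intensity units in stimulated and 0.166 to 0.546 in contralateral muscle, and stood at 0.67 without mouse 440.

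Ferritin and ferroportin, which store and export the iron that heme oxygenase frees, showed no call. Ferritin light chain Ftl1 had a log2 change of 0.42 ± 0.19, positive in 4 of 4 mice (adjusted p = 0.337, limma). Slc40a1, ferroportin, had one of -0.48 ± 0.26, and Ncoa4, which delivers ferritin for breakdown, one of -0.49 ± 0.22 (adjusted p = 0.322, limma).

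Among 31 measured regulators of Hmox1, of 38 listed, 8 rose, 0 fell and 23 did not pass, with a median log2 change of 0.27 against -0.14 over all probes; 1.11% of all probes rose. The list was drawn up with earlier results of these arrays known, and it holds genes already known to move on them, such as Fos, Atf3 and Mafk. The 8 were the AP-1 members Fos and Junb, the related leucine zipper factor Atf3, the small MAF protein Mafk, the zinc finger factors Egr1, Klf2 and Klf4, and the hypoxia-inducible factor Hif1a. Of the 4 with the smallest p, Fos passed in 11 of 16 alternative fits, Klf4 in 12 of 16, Egr1 in 8 of 15 and Mafk in 11 of 16. Alternative fits are not given here for Hif1a, Klf2, Atf3 or Junb, the last 2 with an adjusted p of 0.0344 each (limma).

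The members of the BACH1 and NRF2 switch itself were less uniform. Mafk read 10.3, 11.0, 6.19 and 10.8 intensity units in the stimulated EDL of mice 183, 197, 438 and 440, against 3.90, 2.75, 1.33 and 0.867 in their contralateral EDL, with a log2 change of 2.31 ± 0.32 (adjusted p = 0.0117, limma). All stimulated muscles lay above all contralateral muscles, and mouse 440 had the largest Mafk change, 3.63, as it had the largest Hmox1 change. For Mafk mouse 440 had the lowest contralateral level but not the highest stimulated level, whereas its Hmox1 stood out in stimulated muscle. Nfe2l2, the NRF2 transcript, had a log2 change of 0.27 ± 0.16 (adjusted p = 0.432, limma), Keap1, which holds NRF2 for degradation, one of -0.58 ± 0.21 (adjusted p = 0.247, limma) and Bach1 one of -0.04 ± 0.27 (adjusted p = 0.956, limma). The other small MAF genes, Mafg (-0.14 ± 0.28) and Maff (-0.57 ± 0.52, with 2 stimulated muscles at the floor), did not pass. These are transcript levels, and the activity of BACH1 and NRF2 proteins was not measured.

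The 8 regulators that rose differed in which mouse had the largest change. Fos had log2 changes of 2.46, 2.31, 1.87 and 3.08 in mice 183, 197, 438 and 440, the same order of mice as for Hmox1. Atf3 had log2 changes of 2.67, 1.17, 1.34 and 4.22 in mice 183, 197, 438 and 440, and Hmox1 ones of 2.26, 1.68, 1.28 and 4.68. The changes of Fos, Atf3 and Mafk were largest in mouse 440, as that of Hmox1 was, but their levels differed from those of Hmox1. In stimulated EDL of mice 183, 197, 438 and 440 Fos read 2.315, 6.81, 1.11 and 4.00 intensity units, highest in mouse 197. Atf3 read 14.2, 29.05, 30.8 and 40.9 there. In contralateral EDL Fos read 0.421, 1.37, 0.304 and 0.474, and Atf3 2.23, 12.9, 12.2 and 2.19. Atf3 and Mafk were lowest in the contralateral EDL of mouse 440. Junb had its largest change in mouse 183, 3.46, and Egr1 in mouse 197, 3.86. Hif1a, Klf4 and Klf2 had theirs in mouse 438, at 2.85, 2.15 and 2.09. Klf2 had no contralateral value in mouse 183, which leaves 3 mice. Hif1a read 13.6, 16.7, 15.6 and 19.9 intensity units in the stimulated EDL of mice 183, 197, 438 and 440. In their contralateral EDL it read 2.22, 8.035, 2.17 and 6.82, lowest in mice 183 and 438. Fosl1, an AP-1 member that did not pass, had its largest change in mouse 440, 3.84. Jun was higher in 2 mice and lower in 2, with a log2 change of 1.29 ± 1.04 that did not pass (adjusted p = 0.549, limma). Atf4, the factor of the integrated stress response, had a log2 change of -0.07 ± 0.15.

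**Figure D2:**
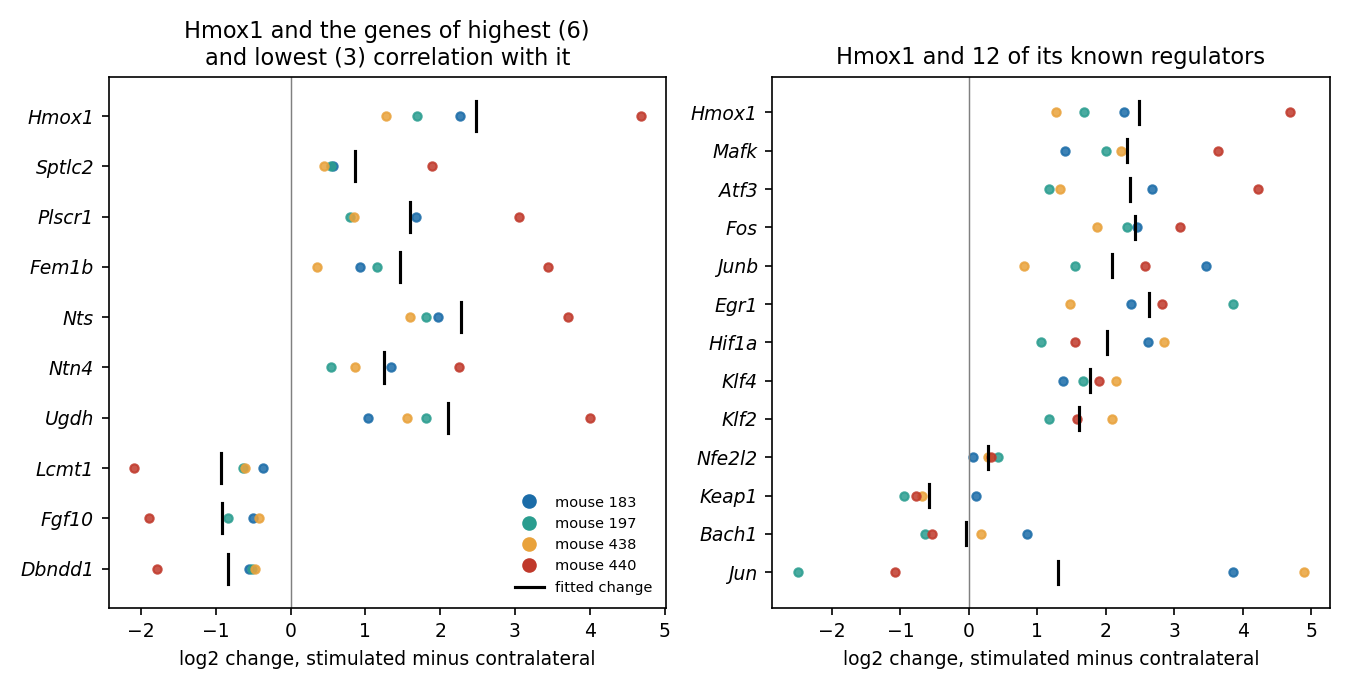
Log2 change, stimulated minus contralateral EDL, of each of 4 mice (coloured points) and the fitted change (black bar). Klf2 has points for 3 mice, since its contralateral value in mouse 183 is missing. The left panel holds Hmox1, the 6 genes with the highest and the 3 with the lowest correlation with it over the 8 arrays, and the right panel holds Hmox1 with the 8 regulators that rose and 4 others chosen after their values were seen. Mouse 440 lies farthest from 0 for Hmox1, at 4.68 with the other mice at 2.26 or less, and for all 9 other genes of the left panel, and among the 8 regulators that rose it does so for Fos, Atf3 and Mafk but not for Egr1, Junb, Hif1a, Klf2 or Klf4.

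Of the genes that NRF2 is known to induce, 27 of 37 listed were measured, and 1 rose, 1 fell and 25 did not pass, where 1.11% of all probes rose and 0.231% fell; 7 changes were positive and 20 negative, and the median was -0.31 against -0.14 over all probes. The classical reporters of NRF2 activity did not pass: Nqo1, a quinone reductase, had a log2 change of -0.17 ± 0.23 (adjusted p = 0.731, limma), Gclm, a subunit of the enzyme that starts glutathione synthesis, one of 0.29 ± 0.24 (adjusted p = 0.568, limma), Txnrd1, a thioredoxin reductase, one of 0.03 ± 0.16 (adjusted p = 0.945, limma) and Slc7a11, the cystine importer, one of 0.11 ± 0.29 (adjusted p = 0.87, limma). In mouse 440, where Hmox1 was highest, Gclm and Slc7a11 were at 1.06 and 1.05, and Nqo1 and Txnrd1 at -0.38 and -0.001. Other members of the list went both ways in that mouse, as Ugdh at 4.01, Gpx2 at -2.23 and Gsr at -1.79.

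The member that rose was Ugdh, which makes UDP-glucuronic acid for glucuronide conjugation and for matrix polysaccharides. It read 12.8, 19.2, 14.1 and 121 intensity units in the stimulated EDL of mice 183, 197, 438 and 440, against 6.25, 5.44, 4.76 and 7.54 in their contralateral EDL, with mouse 440 far above the other stimulated muscles, as for Hmox1. The groups did not overlap, and the log2 change was 2.11 ± 0.41 (adjusted p = 0.0408, limma). It passed in 3 of 16 alternative fits, with an adjusted p of 0.00679 to 0.532, and was 1.47 without mouse 440. The member that fell was the glutathione transferase Gsta3, with a log2 change of -1.56 ± 0.30 (adjusted p = 0.0382, limma), passing in 2 of 15 alternatives. It was dim, at 0.0321 to 0.308 intensity units in stimulated and 0.254 to 1.25 in contralateral muscle, and 1 stimulated muscle was at the floor. Aox1, an aldehyde oxidase (-0.89 ± 0.24), Gsr, which regenerates glutathione (-0.93 ± 0.28), and the glutathione transferase Gstm1 (-0.58 ± 0.19) were negative in 4 of 4 mice and did not pass.

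Other antioxidant enzymes, 16 of 24 listed, had 0 rising and 0 falling (0 and 3 at unadjusted p under 0.05, limma), with 14 negative changes and a median of -0.35. Over all probes 6737 of 10406 changes were negative, with a median of -0.14. Catalase, Cat, which breaks down hydrogen peroxide, read 48.8, 25.7, 98.1 and 52.8 intensity units in stimulated EDL and 94.1, 44.4, 129.6 and 130.8 in contralateral EDL of mice 183, 197, 438 and 440. Its log2 change was -0.86 ± 0.18, lower in 4 of 4 mice (adjusted p = 0.0654, limma). Sod2, the mitochondrial superoxide dismutase, had a log2 change of -0.44 ± 0.16, Gss, glutathione synthetase, one of -0.68 ± 0.27 and Gpx7, a peroxidase of the endoplasmic reticulum, one of -0.51 ± 0.23, and none of them passed.

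**Figure D3:**
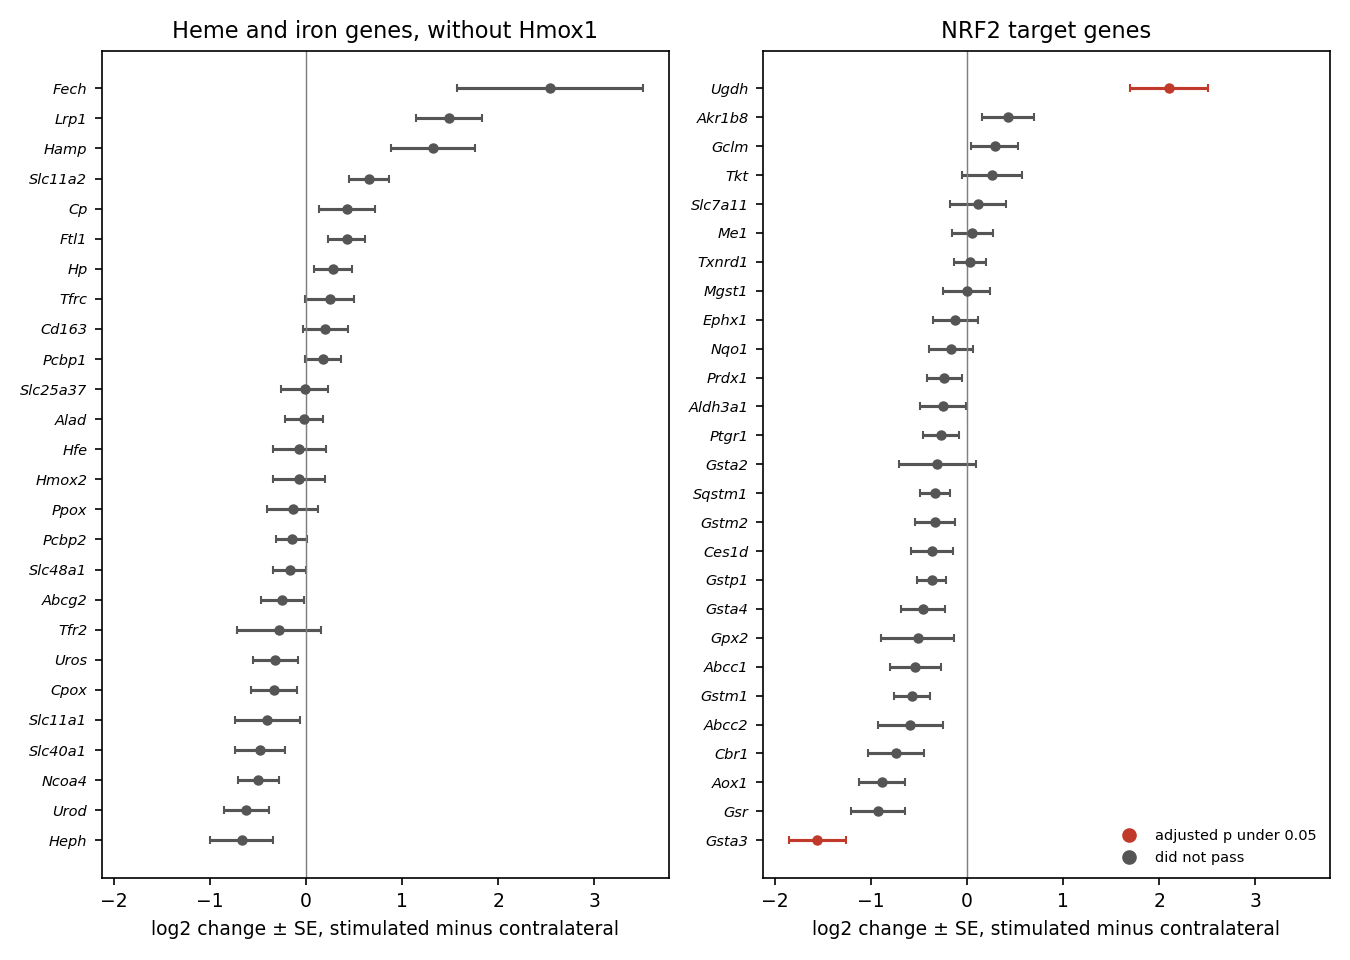
Fitted log2 change with its SE (bars), stimulated minus contralateral EDL, for the measured heme and iron genes other than Hmox1 (left) and the measured NRF2 target genes (right), ordered by size. Points in red passed an adjusted p of 0.05, which on the left is no gene and on the right Ugdh at 2.11 and Gsta3 at -1.56.

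Together the heme, iron and NRF2 lists hold 53 measured genes besides Hmox1, of which 1 rose and 1 fell, against 1.11% and 0.231% of all tested probes. Carbon monoxide made by heme oxygenase is known to act on soluble guanylate cyclase. Of 5 measured genes of that pathway, of 12 listed, 0 rose and 0 fell (0 and 1 at unadjusted p under 0.05, limma), with a median of -0.03. The cyclase subunit Gucy1b1 had a log2 change of -0.83 ± 0.25 (adjusted p = 0.176, limma), the cyclic GMP kinase Prkg1 one of 0.55 ± 0.26 and the inducible nitric oxide synthase Nos2 one of 0.18 ± 0.18, while the other cyclase subunit, Gucy1a1, had one of -0.12 ± 0.34, which turned to 0.15 with quantile normalization.

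Hmox1 is also known as a heat shock gene, Hsp32. Heat shock genes, 18 of 25 listed, had 15 positive changes, 0 rising and 0 falling (4 and 0 at unadjusted p under 0.05, limma), with a median of 0.38. Over all probes 3667 of 10406 changes were positive, with a median of -0.14, and 701 were higher and 883 lower at unadjusted p under 0.05 (limma). Several heat shock genes were negative in mouse 197, where Hmox1 was positive. The cochaperone Dnajb1 had log2 changes of 2.77, -0.33, 3.29 and 3.02 in mice 183, 197, 438 and 440 (fitted 2.19 ± 0.50, adjusted p = 0.0852, limma), and Hmox1 had a log2 change of 1.68 in mouse 197. Hsph1 (1.17 ± 0.37) and Hsp90aa1 (1.16 ± 0.41), cytosolic chaperones, and Hspb1 (0.69 ± 0.29), a small heat shock protein, were likewise negative in mouse 197. For Dnajb1 and these genes the contralateral level was highest in mouse 197. Dnajb1 read 25.8, 24.0, 96.75 and 59.5 intensity units in stimulated EDL of mice 183, 197, 438 and 440. In contralateral EDL it read 3.77, 30.0, 9.88 and 7.35. Without mouse 197 Dnajb1 stood at 3.03, Hsph1 at 1.71 and Hsp90aa1 at 1.82, and all 3 then passed (adjusted p = 0.00695, 0.0369 and 0.0203, limma). These passes follow from taking out the 1 mouse with negative changes, which was singled out after its values were seen. Without mouse 183, 438 or 440 none of the 3 genes passed (adjusted p = 0.138 to 0.453, limma).

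Of 16 measured hypoxia response genes, of 26 listed, 2 rose, 0 fell and 14 did not pass (5 higher and 1 lower at unadjusted p under 0.05, limma). The median was 0.26 against -0.14 over all probes, of which 1.11% rose and 0.231% fell. The 2 that rose were Bhlhe40, a transcriptional repressor (2.17 ± 0.22, adjusted p = 0.00367, limma), and Hk2, the muscle hexokinase (1.03 ± 0.16, adjusted p = 0.0142, limma). Vegfa, the endothelial growth factor, had a log2 change of 1.21 ± 0.25 and did not pass (adjusted p = 0.0573, limma), nor did the vasoconstrictor peptide Edn1 (0.82 ± 0.24). Glycolytic targets of hypoxia-inducible factors went both ways. Ldha (-0.45 ± 0.21) and Pgk1 (-0.30 ± 0.16) had negative changes that did not pass. The hexokinase Hk1 had a positive one, as Hk2 did, of 0.91 ± 0.31 in 4 of 4 mice, which did not pass (adjusted p = 0.223, limma).

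The genes whose pattern was most like that of Hmox1 were found by Pearson's r of log2 intensity over the 8 arrays, among 6170 genes with values on all arrays and at most 3 at the floor. The arrays fall into 2 groups of 4 and mouse 440 stands apart in stimulated muscle, so r mostly carries these features, and it is given as a description. Sptlc2, a subunit of the enzyme that starts sphingolipid synthesis, had r = 0.982 (Spearman's rho 0.952), Plscr1, a phospholipid scramblase, 0.978 (rho 0.929), Fem1b, a substrate receptor of a ubiquitin ligase, 0.976 (rho 0.857), the neuropeptide neurotensin, Nts, 0.971 (rho 0.810), the laminin-related Ntn4 0.965 (rho 0.976) and Ugdh 0.964 (rho 0.738). The median r over the 6170 genes was -0.09, and 61 genes were above 0.9. Without mouse 440 the 6 values ran from 0.913 to 0.972.

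Of these 6, Nts and Ugdh passed the test, where 1.11% of all probes rose. The 6 were picked by likeness to Hmox1 over these same arrays, which favours genes higher in stimulated muscle. Their passing is therefore a description and no independent result. Nts read 4.66, 3.73, 2.32 and 21.4 intensity units in the stimulated EDL of mice 183, 197, 438 and 440, against 1.19, 1.07, 0.766 and 1.63 in their contralateral EDL. Its groups did not overlap, and its log2 change was 2.27 ± 0.33 (adjusted p = 0.0133, limma). Plscr1 (1.60 ± 0.35, adjusted p = 0.0679, limma), Fem1b (1.47 ± 0.43), Ntn4 (1.25 ± 0.33) and Sptlc2 (0.86 ± 0.26) did not pass. Without mouse 440 the log2 changes stood at 0.81 for Fem1b and 0.52 for Sptlc2. Ntn4 was dim, between 0.216 and 0.468 intensity units in stimulated and 0.0896 and 0.149 in contralateral muscle. The lowest r belonged to the methyltransferase Lcmt1 (-0.968, rho -0.786), the growth factor Fgf10 (-0.967, rho -0.810) and Dbndd1 (-0.959, rho -0.929), with changes of -0.93 ± 0.28, -0.91 ± 0.31 and -0.83 ± 0.31 that did not pass. Without mouse 440 these 3 stood at -0.54, -0.59 and -0.51.

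The upstream bases of Ugdh and Nts are shown because these 2 of the 6 genes of highest r passed the test, a choice made after their values were seen. The sequences are RefSeq's for GRCm38.p6, 250 bases before the start site, 5′ to 3′ in the gene's own strand. Ugdh lies at chr5:65435843-65436092 and Nts at chr10:102490419-102490668, both on the minus strand. Capitals mark matches to the core of the antioxidant response element, TGACNNNGC, in Ugdh, and to the AP-1 site, TGACTCA, in Nts, each searched on both strands.
Ugdh: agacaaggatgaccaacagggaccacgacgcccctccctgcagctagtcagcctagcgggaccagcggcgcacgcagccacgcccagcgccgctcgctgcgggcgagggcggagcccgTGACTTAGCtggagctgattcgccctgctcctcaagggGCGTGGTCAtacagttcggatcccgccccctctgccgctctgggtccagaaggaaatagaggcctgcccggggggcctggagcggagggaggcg
Nts: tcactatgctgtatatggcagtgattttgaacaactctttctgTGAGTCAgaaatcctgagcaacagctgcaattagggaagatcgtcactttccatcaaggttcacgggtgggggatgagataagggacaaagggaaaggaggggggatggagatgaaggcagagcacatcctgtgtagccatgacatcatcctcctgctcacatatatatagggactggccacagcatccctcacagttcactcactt

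Ugdh held 2 antioxidant response element cores, which begin 132 and 94 bases before the start site, and Nts held 1 AP-1 site, which begins 207 bases before it. No match overlapped another. Of the other 4 genes of highest r, Ntn4 held 1 antioxidant response element core, and Sptlc2, Plscr1 and Fem1b held neither motif. Over 32851 promoters of the same length, 10.2% held the core and 4.46% the AP-1 site. A match describes the letters in this window and not a bound site. Hmox1 is not among the promoters used here.

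Marker sums of several cell types were higher in the stimulated EDL of mouse 440, where Hmox1 was highest. The summed intensity of 16 macrophage markers was 43.3, 48.5, 108.7 and 284 in the stimulated EDL of mice 183, 197, 438 and 440, against 41.6, 30.5, 79.0 and 120.2 in their contralateral EDL. The sum of 11 neutrophil markers was 14.7, 52.6, 72.8 and 436 in stimulated and 12.7, 42.0, 71.1 and 85.1 in contralateral muscle of the same mice. Both sums were highest in the stimulated muscle of mouse 440. Cd14 made up 40.6% of that macrophage sum, and without it the sum was 36.9, 33.3, 101.1 and 168.9 in stimulated and 38.2, 22.7, 75.4 and 110.5 in contralateral muscle. The mean log2 change over the macrophage markers was -0.03, 0.18, 0.40 and 0.64 in mice 183, 197, 438 and 440, and that over the neutrophil markers -0.12, 0.11, -0.04 and 0.91. In mouse 440 the mean over smooth muscle markers was 0.58 and that over endothelial markers 0.50. The part of these cell types in the Hmox1 change was not tested.

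No macrophage or neutrophil marker passed the test, with median log2 changes of 0.15 and 0.31. At an unadjusted p under 0.05 (limma) 6 macrophage markers and 1 neutrophil marker were higher and 0 lower. Over all 10406 probes 701 were higher and 883 lower. Macrophage markers had 9 positive and 7 negative changes, and neutrophil markers 8 and 3. Negative macrophage markers included Ccr2 (-0.61 ± 0.40, 3 mice), Fcgr1 (-0.28 ± 0.27) and Lyz2 (-0.26 ± 0.25). The scavenger receptor Msr1 had a log2 change of 1.27 ± 0.26 (adjusted p = 0.0527, limma), the endotoxin co-receptor Cd14 one of 1.64 ± 0.40 (adjusted p = 0.102, limma), and Fcer1g, a signalling chain of Fc receptors, one of 0.70 ± 0.23. Cd14 stood at 1.00 without mouse 440 and then passed (adjusted p = 0.0259, limma), but not without mouse 183, 197 or 438 (adjusted p = 0.144 to 0.234, limma). Cd163, the receptor by which macrophages take up hemoglobin, had a log2 change of 0.20 ± 0.23, and Adgre1 and Csf1r were not analysed here. Of the neutrophil sum in the stimulated EDL of mouse 440, 95.7% was S100a8, a calcium-binding protein of neutrophils, at 418 intensity units, against 78.4 in the contralateral EDL. Without S100a8 the neutrophil sum was 2.73, 5.58, 3.71 and 18.6 in stimulated and 2.78, 4.83, 4.04 and 6.70 in contralateral muscle of mice 183, 197, 438 and 440. No marker of either list was at the floor on 4 or more arrays. The neutrophil markers Mpo and Prtn3 were each at the floor in 2 stimulated muscles and 1 contralateral muscle.

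**Figure D4:**
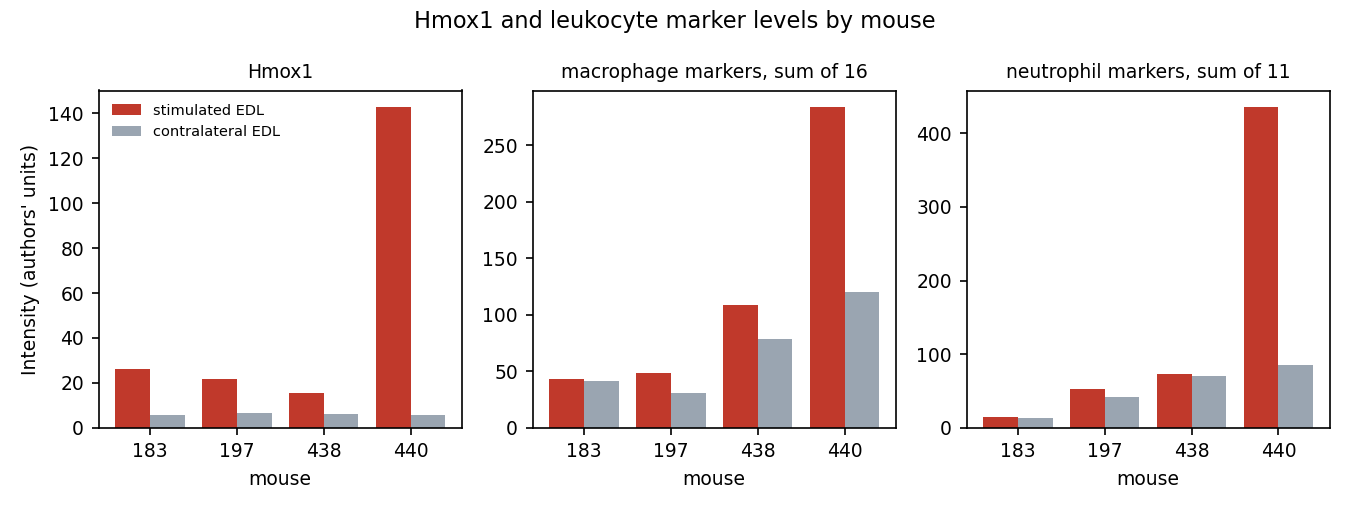
Intensity of Hmox1 (left), the summed intensity of 16 macrophage markers (middle) and that of 11 neutrophil markers (right) for each mouse, stimulated beside contralateral EDL, in the authors' units with axes from 0. The stimulated bar of mouse 440 is the highest in each panel, at 143, 284 and 436, and in mice 183, 197 and 438 the stimulated bar is at 43.3, 48.5 and 108.7 beside 41.6, 30.5 and 79.0 in the macrophage panel and at 14.7, 52.6 and 72.8 beside 12.7, 42.0 and 71.1 in the neutrophil panel.

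Red blood cell transcripts, a sign of blood held in the muscle, had a lower sum in the stimulated muscle of 3 of 4 mice. Hba-a1, an alpha-globin gene, made up 99.7% of the sum of 6 markers in the stimulated EDL of mouse 440. The sum was 417, 808, 1401 and 2370 in stimulated and 887, 972, 790.2 and 2690 in contralateral muscle of mice 183, 197, 438 and 440, higher in stimulated muscle in mouse 438 alone. Hba-a1 had a log2 change of -0.18 ± 0.26 (adjusted p = 0.753, limma), Epb42 one of -0.38 ± 0.23 and the dim Epor one of -0.33 ± 0.27. The sign of Hba-a1 turned with the scaling, to 0.22 with quantile normalization and 0.07 with cyclic loess, and Epor stood at 0.05 with cyclic loess. Of 10 endothelial, 7 fibroblast and 6 smooth muscle markers 0 passed (1, 1 and 1 at unadjusted p under 0.05, limma), with medians of 0.01, 0.05 and 0.09. Kdr, a receptor of endothelial cells, had a log2 change of 0.63 ± 0.19, the matrix proteoglycan Lum one of -0.62 ± 0.22 and the adhesion molecule Mcam one of 0.66 ± 0.25. All 10 markers of fast fibres had negative changes, with a median of -0.48 and 0 passing (6 lower at unadjusted p under 0.05, limma), as the troponin Tnni2 at -0.50 ± 0.15, the creatine kinase Ckm at -0.54 ± 0.16 and the calcium buffer Pvalb at -0.49 ± 0.15. After quantile normalization these 3 stood at 0, -0.22 and -0.12.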

How the data were processed

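The deposited table holds 1 intensity per probe for each of 8 one-colour CodeLink arrays, normalized by the authors. Per the labels' protocols, total RNA became biotin-labelled cRNA, with bacterial control mRNAs amplified alongside for intensity normalization. The sources used here do not give the background correction or the scaling. Of 10500 probes, 6373 have 1 gene symbol, 0 several and 4127 none; symbols were checked through Entrez identifiers.

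Log2 was taken after setting intensities under 0.0937, the 5th percentile of positive ones, to that value (the floor). Values at or below the floor numbered 1387, 708, 358 and 277 on the stimulated arrays of mice 183, 197, 438 and 440. On their contralateral arrays they numbered 619, 579, 238 and 80, fewer in every mouse. Probes with both muscles in at least 3 mice, 10406 in all, were fitted with limma 3.58.1 (R 4.3.3); the model blocked on mouse and let the prior variance follow intensity, and tests were two-sided with Benjamini-Hochberg adjustment over all probes. Errors after ± are moderated SEs unless stated. The mouse number in the titles pairs the muscles of 1 animal; deviations from group means correlated at 0.588, 0.639, 0.577 and 0.515 within mice 183, 197, 438 and 440. With 4 pairs the number of arrays limits the precision. The fit was tested on simulated data.

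Hmox1 and all gene lists (9 pathway and 7 marker lists) were chosen with earlier results of these data known. Named genes were Hmox1, all measured heme breakdown genes, up to 4 genes of each other pathway list and up to 3 of each marker list by smallest p, and the 6 highest and 3 lowest correlations with Hmox1. Further listed genes were named for their known role, after their values were seen. The brightest probe stood for a gene. Alternatives were the floor, the normalization, a filter on dim probes, the variance model, the block, and single mice or pairs of mice.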

Additional observations from a re-analysis of the deposited data

Results flagged for a closer look

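In a group of 4 muscles, 1 muscle lay far from the other 3 in 9 of 126 groups examined for Hmox1 and the named genes. Chance alone flags about 5% of groups, but the count cannot be read against that share, since Ntn4, Lcmt1 and Dbndd1 were named for their likeness to Hmox1, which was itself highest in the stimulated EDL of mouse 440. Hmox1 itself did not stand apart by this measure. All values are log2 intensities. In stimulated EDL, mouse 440 stood apart as the highest for Ntn4 (-1.10, next -2.08), Cdh5 (-1.32, next -3.10) and Epor (-2.51, with the other 3 at the floor) and as the lowest for Lcmt1 (1.26, next 2.57) and Dbndd1 (-3.30, next -2.55). Mouse 438 stood apart as the lowest for Mafk (2.63, next 3.37). In contralateral EDL, mouse 440 stood apart as the highest for Hba-a1 (11.4, next 9.92) and Dbndd1 (-1.52, next -1.96), and mouse 438 for Uros (1.11, next 0.193).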

How the results depend on the processing

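Hmox1 kept a positive change in all 14 alternatives, from 2.39 to 2.56 on the log2 scale in the 8 that kept all mice and from 1.74 (without mouse 440) to 2.88 (without mouse 438) when 1 mouse was left out. Mouse as a block set the error and not the size: without the replicate block it was 2.48 with an SE of 0.56. The counts of calls depended far more on the setting. Of 115 probes higher and 24 lower, 1 and 0 passed without the replicate block (301 and 176 at unadjusted p under 0.05, limma), 0 and 0 under a floor set at the 20th percentile (589 and 707), 0 and 0 in the paired test without moderation (417 and 791), 45 and 5 without an intensity trend, 0 and 0 in mice 183 and 197 alone (476 and 382) and 62 and 7 in mice 438 and 440 alone. Leaving out 1 mouse gave 7 to 149 higher and 0 to 27 lower, lowest without mouse 183 in both. Without mouse 197 it was 56 and 11, and 13 were lower without mouse 438. Of the 53 heme, iron and NRF2 genes, 1 rose and 1 fell with array medians centred, 2 rose and 0 fell in mice 438 and 440 alone, and 0 to 1 rose and 0 to 1 fell without 1 mouse; without mouse 440 1 rose and 0 fell, without mouse 438 0 and 1, and without mouse 183 or 197 0 and 0. In each of the other 10 settings 0 rose and 0 fell: the higher floor, no floor, 0.5 added in place of a floor, quantile normalization, cyclic loess, without the dimmest 50% of probes, no replicate block, no trend, no moderation, and mice 183 and 197 alone. Over 62 named genes and 974 refits, 66 calls were lost and 10 gained. The sign turned in 15 values of 6 genes, 0 of them past the threshold in any fit: Hba-a1 at 0.218 with quantile normalization, 0.073 with cyclic loess, 0.323 in mice 438 and 440 alone and -0.516 to 0.126 without 1 mouse; Gucy1a1 at 0.154 with quantile normalization, 0.108 with cyclic loess, 0.137 in mice 183 and 197 alone and -0.522 to 0.103 without 1 mouse; Hmox2 at 0.075 in mice 183 and 197 alone and -0.407 to 0.169 without 1 mouse (0.031 without mouse 440); Epor at 0.048 with cyclic loess; Cdh5 at 0.015 and Thy1 at -0.071 under the higher floor, and Thy1 at -0.147 to 0.393 without 1 mouse. The causes were not tested. Dim probes such as Gsta3 and Ntn4 are limited by the floor.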

Other observations

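The Fech values showed a pattern that was then looked for in other genes, a choice made after seeing the data. A change of at least 3 on the log2 scale in mice 183 and 438 and of at most 1 in mice 197 and 440 was found in 8 genes: Fech, Jun, Atp5g1, Jpt1, Ap3d1, Slc37a4, Thbs2 and Rom1. In each of them the contralateral arrays of mice 183 and 438 were low. Hif1a did not meet these thresholds, with log2 changes of 2.62, 1.06, 2.85 and 1.54 in mice 183, 197, 438 and 440. Its contralateral intensities were also lowest in mice 183 and 438, at 2.22 and 2.17. Jpt1 read 20.2, 17.3, 20.7 and 33.0 intensity units in the stimulated EDL of mice 183, 197, 438 and 440, against 0.590, 17.0, 0.324 and 32.7 in their contralateral EDL. Atp5g1, a subunit of ATP synthase, read 229, 156, 165 and 187 in stimulated and 19.5, 203, 5.53 and 264.5 in contralateral muscle of the same mice. Jun read 7.98, 8.67, 14.3 and 31.5 in stimulated and 0.551, 49.0, 0.479 and 66.4 in contralateral muscle. Hmox1 did not share the pattern, at 5.49 and 6.34 in the contralateral EDL of mice 183 and 438 and 6.81 and 5.58 in that of mice 197 and 440.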
